A study of Homo sapiens with 8 samples.

Results

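Genes that mark the neuronal cytoskeleton were followed by RNA-seq in HEK293, an established cell line that was made from embryonic kidney. They are 10 of the 27936 genes with an Entrez identifier in the count tables, and were chosen by name: the neuronal beta tubulin TUBB3, the microtubule-associated proteins MAP2, MAPT and DCX, the intermediate filament genes NEFL, NEFM and INA, the stathmins STMN2 and STMN3, and the cell adhesion molecule L1CAM. The name fits what these genes are known for, although L1CAM is a membrane protein that is tied to the cytoskeleton and not a part of it. The rule itself uses no measured value, but the genes were picked with earlier results of these data known. Counts of calls among them are therefore descriptive and not an independent test. Of the 10 genes, 7 had enough counts to be tested, and MAPT, STMN2 and DCX did not.

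The study compared 4 libraries labelled TIP60 knock-out (KO), of genotype HEKg1/C9, with 4 labelled control, of genotype HEKg1. TIP60, the product of KAT5, acetylates histones as part of a chromatin complex. In either arm, 2 libraries carry the guide label sgRNA1 and 2 carry sgRNA2, and all 8 samples had received doxycycline at 1 µg/ml for 3 days to induce the guide RNAs. The guides' targets in the control cells and the meaning of the C9 label are not given in the labels. Nothing in the labels says that replicates came from separate cultures, so p-values measure the spread between these samples, which may be technical. Library totals ran from 3723992 counts, in control sgRNA1 replicate 2, to 18841774. KAT5 was at 18.8 ± 0.965 CPM, counts scaled to library size with TMM factors (SD, n = 4), in KO and 46.8 ± 2.12 CPM in control libraries, and every KO library lay below every control library. KO libraries thus kept 40.1% of the KAT5 level of control. The antisense neighbour RNASEH2C shares 38.6% of the exonic bases of KAT5.

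Microtubules are hollow polymers of alpha and beta tubulin. Microtubule-associated proteins such as MAP2 in dendrites, tau (MAPT) in axons and doublecortin (DCX) in migrating neurons bind and stabilise them, whereas stathmins bind free tubulin and promote disassembly. Neurofilaments are built from the light (NEFL), medium (NEFM) and heavy (NEFH) chains, often together with alpha-internexin (INA) or peripherin (PRPH), and give axons their calibre. L1CAM guides axons and couples the membrane to the spectrin and actin skeleton through ankyrin. HEK293 cells, a line made from embryonic kidney, are known to express neurofilament genes.

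Of the 7 genes tested, 6 were higher in KO than in control libraries and 0 were lower, at an adjusted p under 0.05 by edgeR's quasi-likelihood test with Benjamini-Hochberg adjustment over all 14455 genes tested. Over those genes the share called higher was 31.8%, the share called lower 31.2%, and the share called in either direction 63.0%. In each of the 6 genes every KO library was above every control library, as in 27.3% of all tested genes. L1CAM, TUBB3, MAP2 and INA each rose by more than 2-fold, which 8.38% of tested genes did. NEFM and NEFL, already among the most abundant transcripts, rose by less. For STMN3 the groups overlapped, and MAPT, STMN2 and DCX stayed at a few reads per library. The median log2 fold change of the 7 tested genes was 2.21, beside 0.01 over all tested genes. These are bulk libraries, in which more cells that express a gene and more RNA per cell cannot be told apart.

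**Figure D1:**
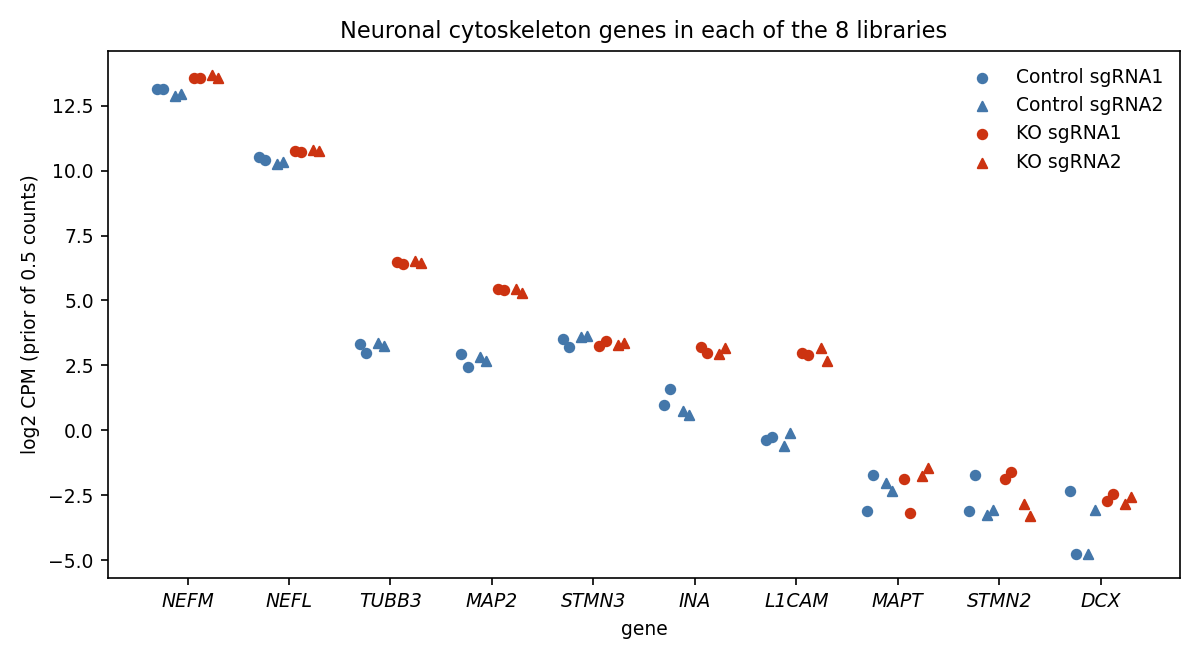
The 10 genes by library, as log2 CPM with a prior of 0.5 counts, 1 point per library; colours are KO and control and shapes the guide number. TUBB3, MAP2, INA and L1CAM separate widely, NEFM and NEFL separate by less, STMN3 overlaps, and MAPT, STMN2 and DCX lie near the bottom in both groups.

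Because several of these genes moved in the same direction, the sequences just upstream of their starts are shown for TUBB3, INA, MAP2 and L1CAM, which rose, and for STMN3, which was not called. They are from RefSeq on GRCh38.p14, which gave windows for 6 of 7 members looked up, 12 windows in all (NEFL, NEFM and STMN2 were not looked up), each with the 250 bases before a transcript start. Stretches that overlap annotated exons of the gene were left off, and where too little or no match was left, 30 bases around the match are given. Capitals mark matches, on either strand, to 9 motifs: the GC box GGGCGGG, the AP-1 site TGANTCA, the cAMP response element TGACGTCA, an E-box of the letters CAGCTG, an E-box of the letters CACCTG, the CCAAT box, the TATA box with the letters TATAAA, and the left part TTCAGCACC and right part GGACAGC of the element bound by the repressor REST.
TUBB3 (chr16:89923092-89923278, plus strand): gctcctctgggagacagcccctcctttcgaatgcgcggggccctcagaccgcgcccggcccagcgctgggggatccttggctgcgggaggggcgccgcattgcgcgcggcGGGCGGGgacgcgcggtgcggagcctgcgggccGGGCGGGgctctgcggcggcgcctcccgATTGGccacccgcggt
TUBB3 upstream start (chr16:89921893-89921922, plus strand): agaccggacggTGAGTCAgccttaagcccg
INA (chr10:103276888-103277137, plus strand): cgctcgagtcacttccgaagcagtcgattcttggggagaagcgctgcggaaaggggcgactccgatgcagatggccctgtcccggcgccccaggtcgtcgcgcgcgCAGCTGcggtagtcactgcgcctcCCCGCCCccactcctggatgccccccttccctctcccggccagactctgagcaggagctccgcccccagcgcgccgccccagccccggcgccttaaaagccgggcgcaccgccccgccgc
MAP2 (chr2:209579082-209579314, plus strand): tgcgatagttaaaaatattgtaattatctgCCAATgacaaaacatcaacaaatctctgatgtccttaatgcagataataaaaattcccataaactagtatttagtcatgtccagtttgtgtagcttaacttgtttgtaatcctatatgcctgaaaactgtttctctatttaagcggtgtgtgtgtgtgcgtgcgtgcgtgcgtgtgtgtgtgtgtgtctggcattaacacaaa
L1CAM (chrX:153876041-153876070, minus strand): gcCAGCTGgGGGCGGGgctgaGGGCGGGgc
STMN3 (chr20:63652767-63653016, minus strand): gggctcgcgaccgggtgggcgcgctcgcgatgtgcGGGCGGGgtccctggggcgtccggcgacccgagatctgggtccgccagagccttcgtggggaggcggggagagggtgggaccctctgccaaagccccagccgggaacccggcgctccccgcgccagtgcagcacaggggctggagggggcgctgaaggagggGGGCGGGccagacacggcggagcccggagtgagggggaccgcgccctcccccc

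In the first of these windows, that of the TUBB3 start at 89923342, 3 GC boxes and an inverted CCAAT were found, 1 of the boxes past the printed stretch, with 78.0% G and C and 39 CpG in 250 bases. The median over 35116 windows of all genes was 58.0% and 11 CpG. The other TUBB3 start, at 89921925, had an AP-1 match 21 to 15 bases upstream. Annotated exons of the gene cover 74 of the 250 bases of that window, and 176 of the 250 for L1CAM. The 30 bases printed for either may thus be exonic. INA had an inverted GC box and a CAGCTG, L1CAM a CAGCTG followed by 2 GC boxes, and MAP2 a CCAAT in a window with 37.6% G and C. The other MAP2 windows, with 44.4% and 51.2% G and C, held no match to the motifs. STMN3, which did not rise, also had 2 GC boxes, in a window with 78.0% G and C. GC boxes are in 31.5% of all windows, CCAAT in 32.0%, CAGCTG in 14.0% and AP-1 matches in 6.57%. Counted per gene, with a match in any of its windows, the shares are 35.3%, 37.0%, 16.7% and 8.06%. The 12 windows of these 6 members held neither part of the REST element and no cAMP response element. Over all windows the left part is in 0.288%, the right part in 4.76% and the cAMP response element in 1.65%. No matches overlapped another motif in the sequences shown. The counts do not tell which start was used, and a match is a description of letters only.

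TUBB3 (gene 10381, chr16:89921925-89936097 on GRCh38.p14) encodes the beta tubulin used as a marker of young neurons. It stood at 88.9 and 84.2 CPM in the KO sgRNA1 libraries and at 92.6 and 86.3 CPM in KO sgRNA2. The control values were 10.0 and 7.81 CPM for sgRNA1 and 10.1 and 9.44 CPM for sgRNA2. The lowest KO library was thus far above the highest control. TUBB3 rose by 3.19 ± 0.068 (log2 fold change ± SE, adjusted p = 8.99e-19, edgeR), or 9.13-fold. Among genes ordered by CPM it ranked 2771 to 3120 in KO and 9777 to 10285 in control libraries. In GENCODE v29, 35.8% of its exonic bases are shared on the same strand with the gene AC092143.1. The neighbouring melanocortin receptor gene MC1R stood at 10.0 CPM in KO and 6.04 CPM in control, a rise of 0.73 ± 0.11 in log2. How reads in the shared bases were assigned is not given.

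As a share of the 9 beta tubulin genes, by counts per length, TUBB3 took 10.1% ± 0.183 in KO and 2.20% ± 0.173 in control libraries (SD, n = 4; exact permutation p = 0.0286, two-sided, the smallest that 4 against 4 libraries allow, and 0.0333 adjusted over 7 shares). Every KO library was between 9.94% and 10.3%, and every control library between 1.97% and 2.39%. Of the 8 other beta tubulins, 6 were tested, 4 rose, none fell and 2 were not called, with a median log2 fold change of 0.46. Among all genes tested, 31.8% rose and 31.2% fell. TUBB4B, the most abundant, rose by 0.97 ± 0.045, TUBB2A by 1.17 ± 0.082, TUBB2B by 0.62 ± 0.068 and TUBB6 by 0.30 ± 0.053. TUBB, the general beta tubulin, had only 0.808 ± 0.660 CPM in KO and 1.05 ± 0.386 CPM in control. It lies on chromosome 6 between 28503296 and 31140092, in a run of 62 protein-coding genes that all had less than 3 CPM, a limit set after the values were seen. TUBB is therefore practically uncounted in the share.

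Alpha tubulins, the partners of beta tubulin, split. Of 8 genes, 5 were tested, 2 rose and 2 fell, with a median of −0.21 (of all genes tested, 31.8% rose and 31.2% fell). TUBA4A rose by 2.50 ± 0.22 from 0.772 CPM and TUBA1A by 0.49 ± 0.050, while TUBA1B fell by 0.42 ± 0.060 and TUBA1C by 0.37 ± 0.046. TUBA1B was the most abundant of them, at 877 ± 55.4 CPM in KO and 1169 ± 107 CPM in control. Alpha tubulins are near-identical copies, as are some beta tubulins, so their split of shared reads is uncertain.

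MAP2 (gene 4133, chr2:209424047-209734112) binds and spaces microtubules in dendrites. Its KO values were 43.7 and 42.5 CPM for sgRNA1 and 43.3 and 39.4 CPM for sgRNA2. Control libraries had 7.68 and 5.39 CPM for sgRNA1 and 7.04 and 6.27 CPM for sgRNA2. The groups were far apart and the KO libraries close together. MAP2 rose by 2.62 ± 0.085 (adjusted p = 8.69e-16, edgeR), or 6.14-fold, and it shares no exonic bases with another gene in GENCODE v29.

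L1CAM (gene 3897, chrX:153861514-153886173) had 7.77 and 7.35 CPM in KO sgRNA1 and 9.05 and 6.29 CPM in KO sgRNA2. In control libraries it had 0.727 and 0.808 CPM for sgRNA1 and 0.621 and 0.895 CPM for sgRNA2. The control values rest on 3 to 11 reads per library and the KO values on 95 to 173, and the groups did not overlap. L1CAM rose by 3.35 ± 0.22 (adjusted p = 4.32e-11, edgeR). The ratio of CPM, with reads pooled over the libraries of each arm, was 10.3. Its 95% interval from the counts, 7.23 to 15.3, covers counting error only. The filter on low counts asks for 0.716 CPM on library totals, without TMM factors. On that scale the level was reached in 2 of the 4 control libraries and in all 4 KO libraries. Exon overlap was 6.04% on its own strand and 4.94% on the other.

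INA (gene 9118, chr10:103277138-103290346) encodes alpha-internexin, the filament protein of young neurons that joins the neurofilament chains. KO libraries had 9.17 and 7.87 CPM for sgRNA1 and 7.69 and 9.07 CPM for sgRNA2. Control libraries had 1.94 and 2.96 CPM for sgRNA1 and 1.66 and 1.47 CPM for sgRNA2. The highest control, 2.96 CPM, is the shallowest library and rests on 11 reads, and it still lay below every KO library. INA rose by 2.21 ± 0.17 (adjusted p = 5.92e-10, edgeR), or 4.63-fold.

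NEFM (gene 4741, chr8:24913761-24919093), the medium neurofilament chain, was the gene of rank 2 by CPM in all 8 libraries. It stood at 12125 and 12068 CPM in KO sgRNA1 and at 13195 and 12244 CPM in KO sgRNA2. Control libraries had 9117 and 8953 CPM for sgRNA1 and 7543 and 7926 CPM for sgRNA2. All KO libraries were above all control libraries, and within the control arm both sgRNA1 libraries were above both sgRNA2 libraries. NEFM rose by 0.57 ± 0.066 (adjusted p = 2.35e-07, edgeR), or 1.48-fold. It took 1.22 to 1.34% of all counts in KO and 0.749 to 0.893% in control libraries.

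NEFL (gene 4747, chr8:24950955-24956612), the light chain on which the other neurofilament chains assemble, had 1722 and 1696 CPM in KO sgRNA1 and 1769 and 1737 CPM in KO sgRNA2. Control libraries had 1480 and 1354 CPM for sgRNA1 and 1229 and 1278 CPM for sgRNA2. Here too the groups were apart, and the sgRNA1 controls were the higher ones. NEFL rose by 0.38 ± 0.054 (adjusted p = 4.30e-06, edgeR), or 1.30-fold. By CPM it ranked 24 to 26 in KO and 29 to 44 in control libraries. Genes on the opposite strand cover 38.9% of the exonic bases of NEFM and 11.3% of those of NEFL. The libraries were made with a stranded kit, but whether the counting used strand is not given, so reads from these antisense genes cannot be told apart from the chains' own.

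**Figure D2:**
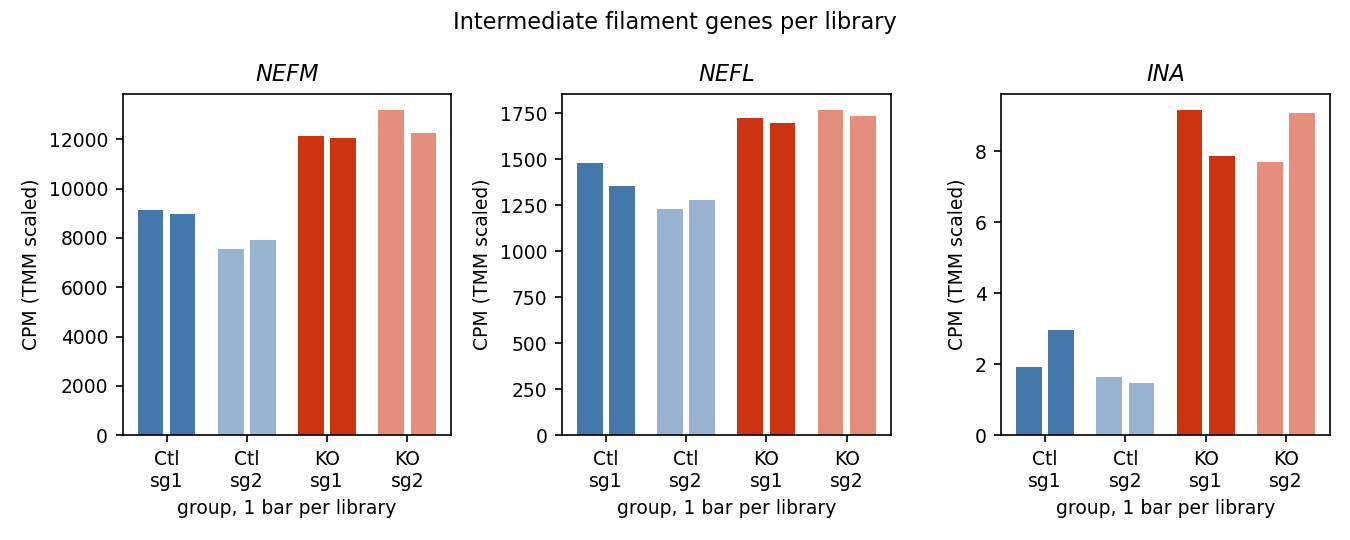
NEFM, NEFL and INA in CPM, 1 bar per library, each panel with its own linear axis from 0. NEFM lies between 12068 and 13195 CPM in KO and between 7543 and 9117 CPM in control libraries, and INA between 7.69 and 9.17 against 1.47 and 2.96 CPM.

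The heavy chain NEFH stood at 136 ± 8.21 CPM in KO and 117 ± 11.8 CPM in control and rose by 0.23 ± 0.056 (adjusted p = 0.00131, edgeR), and PRPH stood at 2.48 and 2.53 CPM (−0.03 ± 0.19, adjusted p = 0.914, edgeR). By counts per length, NEFM made up 87.4% ± 0.278 of these 5 genes in KO and 85.8% ± 0.346 in control. NEFL took 11.5% ± 0.276 against 12.9% ± 0.397. NEFH took 0.931% ± 0.0356 against 1.17% ± 0.0637, INA 0.0670% ± 0.00778 against 0.0229% ± 0.00631 and PRPH 0.0326% ± 0.00441 against 0.0484% ± 0.00356 (SD, n = 4). In each of the 5 shares the groups did not overlap (exact permutation p = 0.0286, 0.0333 adjusted over 7 shares). The mix thus shifted towards NEFM and INA, and since the shares sum to a fixed whole, they are not independent of each other.

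STMN3 (gene 50861, chr20:63639712-63653424), a neuronal stathmin anchored to Golgi and vesicle membranes, had 9.46 and 10.8 CPM in KO sgRNA1 and 9.62 and 10.1 CPM in KO sgRNA2. Control libraries had 11.3 and 9.16 CPM for sgRNA1 and 11.9 and 12.3 CPM for sgRNA2. The groups overlapped through the shallowest library, control sgRNA1 replicate 2, which was the lowest of all. The log2 fold change was −0.21 ± 0.10 (adjusted p = 0.0766, edgeR). Without that library it was −0.26 (adjusted p = 0.0278, edgeR), and without KO sgRNA1 replicate 2 it was −0.26 (adjusted p = 0.0412, edgeR).

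STMN2 (gene 11075, chr8:79611117-79666158), which acts in growing and regenerating axons, had 4, 4, 2 and 1 reads in the KO libraries and 1 read in each control library. The ratio of CPM, with reads pooled over each arm, was 1.82 (95% interval from counts 0.539 to 7.83, exact permutation p = 0.457 over libraries, n = 4 per group). DCX (gene 1641, chrX:111293779-111412192) had 2 reads in each KO library and 2, 0, 0 and 1 in control libraries, a ratio of 1.76 (0.423 to 10.3; exact permutation p = 0.171, n = 4 per group). No difference was detectable for either gene at this depth. STMN2 and STMN3 together took 4.61% ± 0.232 of the counts per length of the stathmin genes in KO and 4.36% ± 0.140 in control (exact permutation p = 0.143, n = 4 per group). STMN1, the widely expressed stathmin, fell by 0.24 ± 0.051, from 327 to 278 CPM.

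MAPT (gene 4137, chr17:45894554-46028334), which encodes tau, had 4, 1, 5 and 5 reads in KO and 1, 1, 3 and 2 reads in control libraries. The ratio of CPM, with reads pooled over each arm, was 1.42 (0.544 to 4.11, exact permutation p = 0.6 over libraries, n = 4 per group). Its neighbours bear on how this level can be read. MAPT lies within 15 consecutive protein-coding genes, ARHGAP27 to WNT9B on chromosome 17 from 45393908 to 47049128, of which none reached a mean of 3 CPM over the 8 libraries. NSF, a membrane fusion ATPase that all cells use, was listed at 0 in all 8 libraries, and KANSL1, a subunit of a common chromatin complex, had 8 reads in KO and 6 in control. On either side in gene order, MAP3K14 had 9.72 CPM and GOSR2 55.4 CPM. GOSR2, at 46923160 to 46975890, lies within the stated coordinates, so that span is not low throughout. Over all 19171 protein-coding genes, 41.1% were under 3 CPM. What keeps the counts of this block low was not tested, and the level of MAPT was not read as absence. STMN2 and DCX lay in shorter runs, of 2 and 3 genes.

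Per kilobase of gene length, the order of levels in KO libraries was NEFM (3421 ± 146 CPM per kb; SD, n = 4), NEFL (450.6 ± 7.93), TUBB3 (43.9 ± 1.79), MAP2 (3.97 ± 0.183), STMN3 (3.66 ± 0.216), INA (2.62 ± 0.241) and L1CAM (1.45 ± 0.217). STMN2, MAPT and DCX followed at 0.0758, 0.0316 and 0.0130 CPM per kb. MAP2 and STMN3 overlapped over the libraries, as did STMN2 with MAPT and MAPT with DCX. In control libraries the order was NEFM (2312 ± 212), NEFL (347.6 ± 28.4), TUBB3 (4.66 ± 0.535), STMN3 (4.09 ± 0.514), INA (0.621 ± 0.207), MAP2 (0.620 ± 0.0929) and L1CAM (0.146 ± 0.0223 CPM per kb), again with STMN2, MAPT and DCX at the end. There TUBB3 overlapped STMN3, and INA overlapped MAP2. TUBB3, close to STMN3 in control libraries, was thus far above it in KO.

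The comparison was repeated within each guide number. Within sgRNA1, 6 of the 7 tested genes were higher in KO (24.3% of all tested genes were), and within sgRNA2 the same 6 were (25.7%). TUBB3 rose by 3.19 ± 0.11 within sgRNA1 and 3.19 ± 0.092 within sgRNA2, MAP2 by 2.60 ± 0.13 and 2.63 ± 0.12, and L1CAM by 3.33 ± 0.35 and 3.36 ± 0.29. INA rose by 1.96 ± 0.25 and 2.40 ± 0.22, NEFM by 0.42 ± 0.083 and 0.72 ± 0.083, and NEFL by 0.27 ± 0.072 and 0.48 ± 0.072. None of the 7 passed the test of the difference between guide numbers, which called 0.00% of genes (0 by edgeR, and 638 at an unadjusted p under 0.05). The largest of these differences in SE units was NEFM's, 0.30 ± 0.12 (unadjusted p = 0.0209, adjusted p = 1, edgeR).

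The guide numbers were also compared within each arm. Among control libraries sgRNA2 was below sgRNA1 by −0.22 ± 0.083 for NEFM and −0.18 ± 0.072 for NEFL in log2 (adjusted p = 0.525 and 0.560, edgeR), and among KO libraries the values were 0.07 ± 0.083 and 0.04 ± 0.072. NEFH had −0.21 ± 0.076 among control libraries (adjusted p = 0.508, edgeR). None of the 7 genes was called between the control groups, where 0.0277% of genes were. Of the 7, NEFM was called when no filter on low counts was used (−0.23, adjusted p = 0.00242, edgeR), and NEFL without control sgRNA1 replicate 2 (−0.23, adjusted p = 0.0348, edgeR). The fit with no filter also gave NEFM a smaller SE for KO against control, 0.034 in place of 0.066 (adjusted p = 9.07e-55 and 2.35e-07, edgeR). What led to its NEFM call between guide numbers was not tested. None of the 7 was called between the KO groups, where 0.00% of genes were (0 by edgeR, and 613 at an unadjusted p under 0.05).

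**Figure D3:**
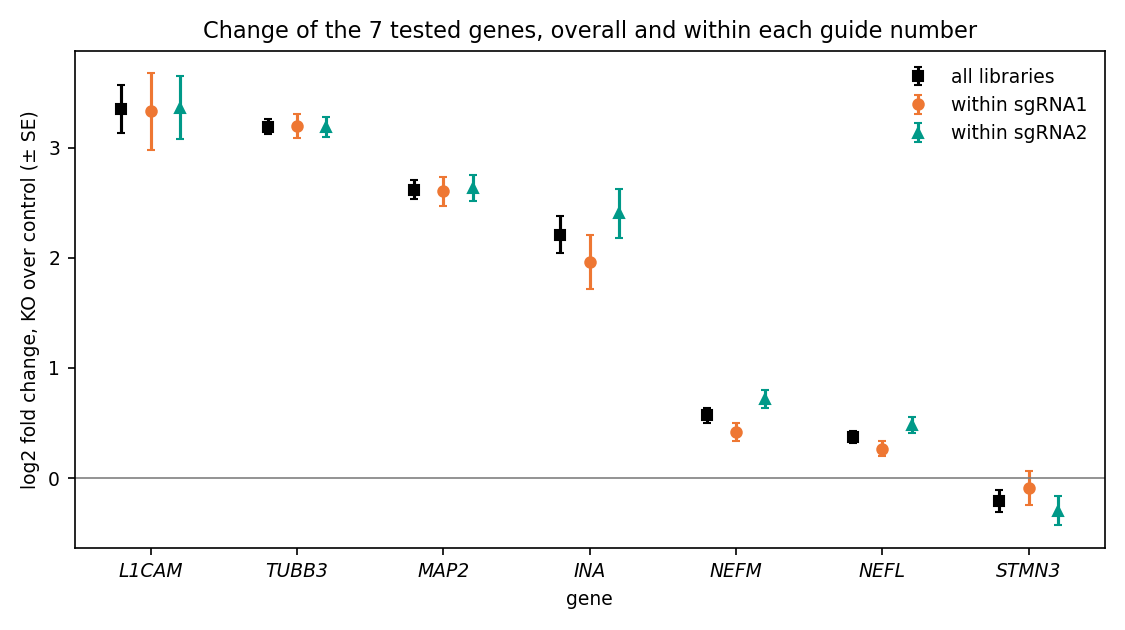
Log2 fold change of KO over control with SE for the 7 tested genes, over all libraries and within each guide number. L1CAM, TUBB3, MAP2 and INA lie between 1.96 and 3.36, NEFM and NEFL between 0.27 and 0.72, and STMN3 just below 0.

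Among the 5 genes outside the 10 members whose profile over the 8 libraries was nearest to that of TUBB3, by Euclidean distance of centred log2 CPM among 12320 genes, were B3GAT2 (0.507), NPTX2 (0.520), H2BC5 (0.562) and NEDD9 (0.679). NPTX2, a neuronal pentraxin, stood at 123 ± 3.90 CPM in KO and 16.4 ± 1.21 CPM in control. Of the members, L1CAM was at a distance of 0.659 from TUBB3, nearer than NEDD9, and MAP2 at 0.803. The genes outside the members nearest MAP2 were the ephrin EFNB2 (0.316), the Notch-modifying enzyme LFNG (0.325) and the protocadherin PCDH9 (0.389). LFNG stood at 12.5 ± 1.46 CPM in KO and 1.86 ± 0.419 CPM in control. Nearest L1CAM, again outside the members, were B3GAT2 (0.493), the calsyntenin CLSTN2 (0.511) and LINC00673 (0.571). The distance is set mostly by the size of the KO change, which all these genes share.

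Other genes of the neuronal cytoskeleton were described by lists chosen by function. Beside their counts stand the shares over all genes tested, 31.8% called higher and 31.2% called lower. A gene that reached the filter level in no control library was tested only through its KO libraries, so its direction was fixed by being tested; this was so for 445 of the 4602 genes called higher in all. Of 20 other microtubule-associated proteins and motors listed as neuronal, all tested, 14 rose and 2 fell, with a median of 0.66. Of the 14, 1 (MAP6) was tested only through KO libraries. TPPP, which promotes tubulin polymerisation, rose by 1.82 ± 0.080, the kinesins KIF5C and KIF1A by 1.30 ± 0.076 and 0.66 ± 0.047, and MAP1B by 0.66 ± 0.052. The 14 growth cone and CRMP genes were divided, 6 up and 6 down, with a median of −0.01, and 3 of the 6 up (CNR1, CRMP1 and GAP43) were tested only through KO libraries. DPYSL4 rose by 2.38 ± 0.14 and the actin bundler FSCN1 by 0.75 ± 0.045, while the drebrin gene DBN1 fell by 0.98 ± 0.050 and MARCKS by 0.73 ± 0.047. Among 15 other stathmins and general microtubule-associated proteins, 14 were tested, 2 rose and 5 fell (median −0.05). MAP4, the widely expressed relative of MAP2 and tau, fell by 0.54 ± 0.046, MAP7D1 by 0.52 ± 0.051 and CLIP1 by 0.39 ± 0.058, and MAPRE2 rose by 0.57 ± 0.054.

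Of 15 other intermediate filament genes, 13 were tested, 7 rose and 3 fell (median 0.29). Of all genes tested, 31.8% rose and 31.2% fell. The filaments SYNM and NES rose by 0.88 ± 0.049 and 0.89 ± 0.12. The nuclear lamins LMNB1 and LMNB2 fell by 0.80 ± 0.044 and 0.62 ± 0.041, and vimentin (VIM) fell by 0.30 ± 0.046. Of 18 genes of the L1 family, neural adhesion, ankyrins and spectrins, 17 were tested, 9 rose, 1 of them (NFASC) tested only through KO libraries, and 3 fell (median 0.26). NCAM2 rose by 1.33 ± 0.11, NCAM1 by 0.44 ± 0.047 and the spectrin SPTAN1 by 0.58 ± 0.045.

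**Figure D4:**
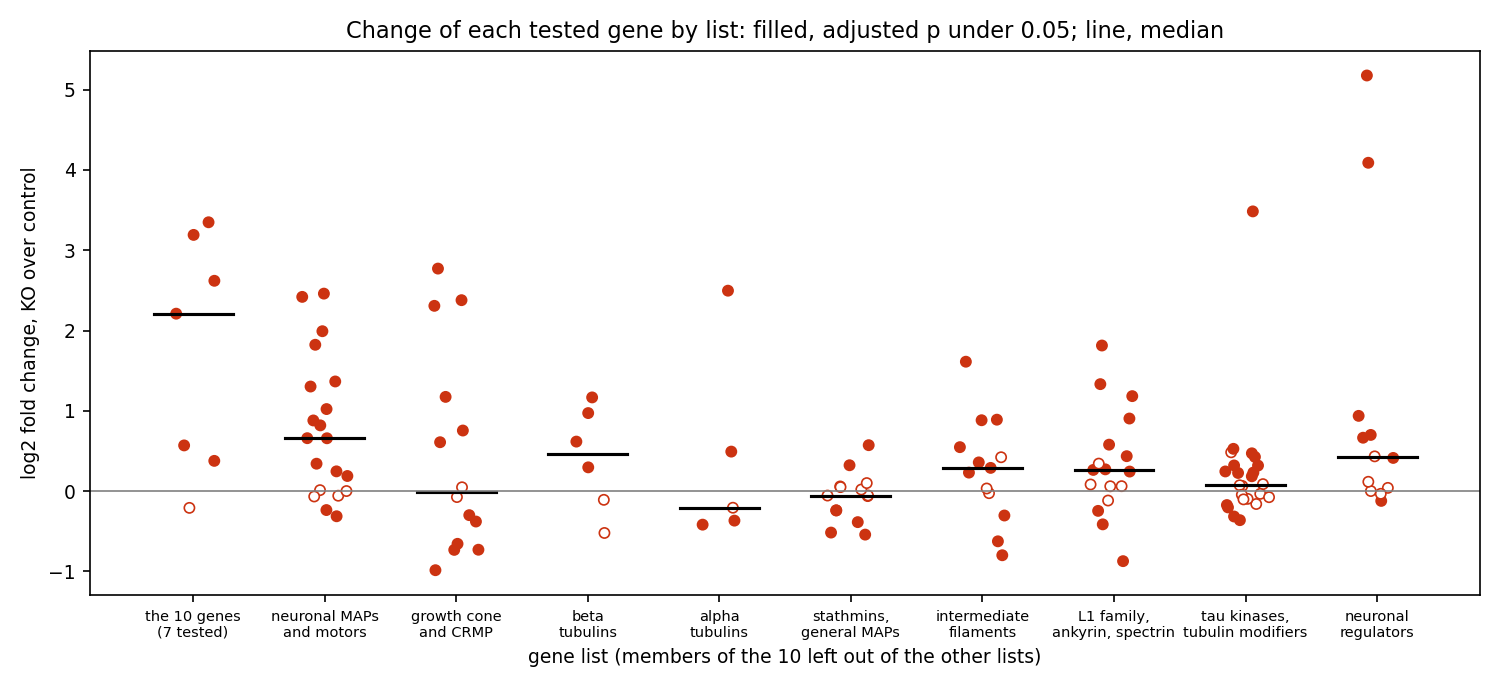
Log2 fold change of KO over control for each tested gene by list, with the median as a line; filled points had an adjusted p under 0.05. The median of the 7 tested genes is 2.21. That of other microtubule-associated proteins and motors listed as neuronal is 0.66, and that of general ones −0.05.

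Markers named for several cell types were read beside these results in the same HEK293 samples, and their part in them was not tested. Their counts stand beside 31.8% of all tested genes called higher and 31.2% called lower. Of 10 mature neuron markers, 7 were tested, 5 rose and none fell, and their summed level was 53.3 to 57.9 CPM in KO and 27.1 to 29.9 CPM in control libraries. SLC17A7 rose by 3.11 ± 0.16. SYN1 was tested only through its KO libraries, at 2.47 CPM in KO and 0.186 CPM in control. The most abundant, GAD1, stood at 14.0 and 13.4 CPM (0.10 ± 0.099, adjusted p = 0.414, edgeR), and the neuronal nuclear marker RBFOX3 at 0.799 and 0.727 CPM (0.03 ± 0.33). Of 7 neuroendocrine markers, 2 were tested and both were called higher, CHGB only through its KO libraries, with sums of 7.48 to 10.8 and 1.86 to 2.69 CPM. SCG3 led them at 7.34 and 1.97 CPM, and CHGA, DBH and TH were at 0. Of 7 astrocyte markers 5 were tested, 1 rose and 2 fell, and their sum was 130 to 139 CPM in KO and 208 to 226 CPM in control, led by SLC1A3. Of 8 oligodendrocyte markers 4 were tested, 3 were called higher, 1 of them (MOBP) only through its KO libraries, and 1 fell, with sums of 17.6 to 21.4 and 21.0 to 23.7 CPM, led by MBP, and MAG was at 0.

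Markers of tissues outside the nervous system differed in level. The kidney lineage sums were above those of the mature neuron markers (53.3 to 57.9 CPM in KO, 27.1 to 29.9 CPM in control). Over all genes tested, 31.8% were called higher and 31.2% lower. Of 8 leukocyte markers 2 were tested and both rose (sums 8.59 to 9.67 and 4.58 to 6.46 CPM, led by CD68). Of 7 fibroblast markers 4 were tested and none was called (26.7 to 30.8 and 20.9 to 32.0 CPM, led by COL1A1). The 1 tested of 6 endothelial markers, KDR, reached the filter level in KO libraries alone, so its direction was fixed by being tested, and it stood at 2.10 CPM in KO and 0.130 CPM in control (sums 3.05 to 4.26 and 0 to 0.414 CPM). None of 5 hepatocyte markers was tested (0.234 to 0.594 and 0 to 0.0814 CPM, led by APOA1, with SERPINA1 at 0). Of 10 kidney lineage markers 6 were tested, 3 were called higher, 1 of them (CDH6) only through its KO libraries, and 1 fell, with sums of 113 to 116 CPM in KO and 85.7 to 104 CPM in control. The tubule marker UMOD was at 0.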

How the data were processed

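RNA of 8 HEK293 samples had been made into stranded mRNA libraries and sequenced as paired reads of 80 bp, per the labels' protocols. The values used were raw counts per gene as the authors deposited them, with the length of each gene beside them, per the file headers. Counting used featureCounts on hg38, per the submitters' processing notes. No source used here names the aligner, annotation release, strand setting or filters. Of 28395 entries, 459 without a gene identifier, 0.0284 to 0.0425% of counts, were left out. Symbols and positions came from RefSeq on GRCh38.p14 for 27744 of 27936 genes.

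CPM were scaled by TMM factors. Genes were kept by filterByExpr (minimum count 10, minimum total 15). edgeR 4.0.16 (quasi-likelihood F test) compared KO with control with a guide term and 5 residual degrees of freedom. Contrasts within and between guide numbers came from a fit of 4 group means, which leaves 4 residual degrees of freedom. Adjusted p-values are Benjamini-Hochberg over all genes tested, and the scripts were tested on simulated data. Single values and shares were tested by exact permutation over libraries, two-sided. Alternatives were DESeq2 1.42.0, its size factors in edgeR, limma-voom 3.58.1, library totals, other filters, a replicate block, thinning to the smallest library, no guide term, and leaving out each library. Intervals are exact 95% intervals of counts, which cover counting error only, since reads lack molecular identifiers. A ratio of CPM given with an interval pools the reads of each arm over its libraries and is not the ratio of mean CPM.

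The members and the gene lists were chosen with earlier results of these data known. Named were all members, KAT5, up to 4 genes of each list with the smallest p, REST, the most abundant gene of each marker list, and the genes nearest TUBB3, MAP2 and L1CAM whose mean log2 CPM was 1 or more. Neighbours on the chromosome, MC1R, TUBB, ATAT1, STMN1, VIM, NEFH, PRPH, RBFOX3 and the other genes tested only through KO libraries were named after their values were seen. Some genes that this rule names are not reported here; all counts and adjusted p-values include them.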

Additional observations from a re-analysis of the deposited data

Results flagged for a closer look

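In 34 sets of 4 libraries, 1 for each gene or share in each arm, 3 held a library far from the others, where chance gives about 1 in 20. Among KO libraries NEFM was highest in sgRNA2 replicate 1, at 13195 CPM, with the other 3 between 12068 and 12244 CPM. Among control libraries STMN2 was highest in sgRNA1 replicate 2, at 0.269 CPM, which is 1 read in the shallowest library. In the same library NEFL took 12.3% of the neurofilament genes by counts per length, below the 13.1 to 13.2% of the other 3 control libraries.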

How the results depend on the processing

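Over 17 alternatives the 6 genes called higher in KO stayed called, with log2 fold changes of 3.15 to 3.33 for TUBB3, 2.57 to 2.68 for MAP2, 2.11 to 2.35 for INA, 3.11 to 3.48 for L1CAM, 0.51 to 0.60 for NEFM and 0.34 to 0.42 for NEFL. STMN3 ranged from −0.34 to −0.17, and the number of members called lower ranged from 0 to 1 on leaving out a library, both in the whole comparison and within sgRNA2, STMN3 being the gene. NEFL within sgRNA1 was not called without KO sgRNA1 replicate 1 (0.25, adjusted p = 0.0589, edgeR). Thinned to the smallest library, the calls within sgRNA2 were 2295 higher and 2276 lower, against 3716 and 3678, with fewer reads. With no filter, MAPT, STMN2 and DCX were not called (adjusted p = 0.644, 0.646 and 0.665, edgeR). STMN2, DCX and the control values of L1CAM rest on few reads, and what keeps MAPT low was not tested.

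Comparisons between guide numbers had few calls and moved most, and the cause was not tested. With no filter, the SE of NEFM was smaller (0.034 against 0.066 for KO against control). Whether this led to its calls below was not tested. The difference of the KO effect called 7 genes higher and 4 lower with no filter, NEFM among them as the 1 member (0.31, adjusted p = 0.0194, edgeR), and 0 to 22 higher and 0 to 15 lower on leaving out a library, 22 without control sgRNA1 replicate 1 and 15 without its replicate 2. Between the control groups, 1 gene was higher and 3 lower. No gene was higher, 0, under DESeq2 size factors, library totals, DESeq2, limma-voom, the stricter filter or thinning, and 29 were higher and 57 lower with no filter, 1 member (NEFM) among the latter. Leaving out a library gave 0 to 63 higher, 2 to 53 lower and 0 to 1 member lower (NEFL, −0.23 without control sgRNA1 replicate 2, adjusted p = 0.0348, edgeR). Between the KO groups, 2 genes were higher and 9 lower with no filter, and 0 to 4 and 0 to 9 on leaving out a library.

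Changes of direction were seen only among values that were not called. Thinning gave −0.24 for MAP2 in the difference of guide numbers, 0.17 for MAP2 and −0.40 for L1CAM between control groups, −0.27 for L1CAM between KO groups, and −0.358 percentage points for the stathmin share, against 0.242. L1CAM between control groups, 0.0023, was −0.00082 under DESeq2 size factors, −0.0015 in DESeq2 and −0.076 in limma-voom. Leaving out a library gave −0.19 to 0.14 for STMN3 within sgRNA1. For the difference of guide numbers it gave −0.29 to 0.074 for TUBB3, −0.37 to 0.14 for MAP2 and −0.27 to 0.29 for L1CAM. Between control groups it gave −0.024 to 0.34 for TUBB3, −0.19 to 0.32 for MAP2 and −0.26 to 0.26 for L1CAM. Between KO groups it gave −0.0016 to 0.10 for TUBB3, −0.13 to 0.0060 for MAP2, −0.16 to 0.086 for INA, −0.12 to 0.065 for STMN3 and −0.26 to 0.26 for L1CAM.

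Replicate numbers did not pair the samples, with correlations of replicate differences between groups of −0.0167 to 0.0325. With the replicate number as a block, the difference of the KO effect called 1 gene higher, 0 genes were higher between the control groups, and L1CAM in the difference was −0.029. The block ended no call among the members between KO and control.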

Other observations

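Genes that regulate neuronal identity and the enzymes that modify tau and tubulin were also read. Among all genes tested, 31.8% were called higher and 31.2% lower. Of 18 neuronal regulators, 12 were tested, 6 were called higher and 1 lower, with a median of 0.42. Of the 6, SCRT1 and ELAVL3 reached the filter level in no control library and were tested only through KO libraries, which fixed their direction. SOX4 rose by 0.94 ± 0.051, from 318 to 612 CPM, and the REST corepressor RCOR1 by 0.41 ± 0.056. The neuronal repressor SCRT1 had 357 reads in KO and 6 in control libraries, a ratio of CPM of 39.4 (95% interval from counts 17.9 to 108), and the RNA-binding protein gene ELAVL3 88 and 3 reads, a ratio of 19.4 (6.43 to 95.9). REST, which represses neuronal genes in other tissues, stood at 79.8 ± 3.81 CPM in KO and 86.3 ± 6.71 CPM in control (SD, n = 4), a log2 fold change of −0.12 ± 0.052 (adjusted p = 0.0464, edgeR) that was not called within either guide number (adjusted p = 0.0985 and 0.327, edgeR).

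Of 25 tau kinases and tubulin-modifying enzymes, 24 were tested, 10 were called higher and 4 lower, with a median of 0.08. The shares over all genes tested were 31.8% higher and 31.2% lower. GSK3B, a main tau kinase, rose by 0.47 ± 0.046. CDK5R2, a neuronal activator of CDK5, had 141 reads in KO and 8 in control libraries, or 2.17 and 0.147 CPM; it too was tested only through KO libraries. The deglutamylase AGTPBP1 rose by 0.43 ± 0.057 and the polyglutamylase TTLL4 fell by 0.32 ± 0.045. ATAT1, the alpha tubulin acetyltransferase, was the 1 gene not tested, at 0.0682 and 0.146 CPM, and it lies in the same run of 62 low genes on chromosome 6 as TUBB.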
